A study of Mus musculus with 8 samples.

Results

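The genes described here are 10 regulators of the primitive streak, namely the T-box genes T (Brachyury), Eomes and Tbx6, the homeobox genes Mixl1, Gsc, Evx1 and Lhx1, the helix-loop-helix gene Mesp1 and the ligand genes Wnt3 and Fgf8. They were taken by gene symbol from the platform annotation and are 10 of the 18295 gene symbols on the array, covered by 14 probes. All 14 probes passed the filter on dim signals. Expression was measured on 8 dual-colour oligonucleotide arrays in mouse embryonic stem (ES) cell lines derived from IB10, a subclone of E14. Each line was 1 picked colony from a lentiviral pLKO-puro transduction with a short hairpin and puromycin selection, and was cultured with serum and LIF on gelatin without a feeder layer being named. The hairpin targeted Taf5 in the lines Taf5-kd#1 and Taf5-kd#2 and was a control in the lines Ctrl-kd#1 and Ctrl-kd#2, so all 4 lines share the vector, the selection and the cloning step, while the untransduced parental cells carry none of these. TFIID, of which Taf5 forms part, is the general transcription factor that recognises core promoters. Each line was grown in duplicate, and each culture was hybridised against 1 pool of parental ES cell RNA. Array 1 of a line carried the line in Cy3 and array 2 in Cy5.

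The primitive streak is the site at the posterior of the gastrulating embryo where epiblast cells leave the epithelium and become mesoderm and definitive endoderm. Wnt3 and Nodal signals start it, T and Eomes are among the first transcription factors to mark it, and T is a direct target of Wnt signalling through TCF/LEF factors. In cultured ES cells these genes are known as marks of the first cells that leave pluripotency towards mesendoderm, and low, patchy T is known from ES cells in serum.

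Values are log2 ratios of a line to the parental pool with the dye effect removed, so that 0 is the parental level and negative values lie under the parental cells. A constant offset was added to both channels before the ratio was taken, so 1 is a doubling of the signal with that offset. The offset draws the ratios of dim signals towards 0. Folds of dim probes are thus smaller than the background-subtracted signals alone would give. A difference was called when its Benjamini-Hochberg adjusted p from limma's moderated test across all 25150 features was under 0.05. For comparisons of single lines that p measures the spread between 2 cultures of 1 clone, not between clones. Comparisons of Taf5-kd with Ctrl-kd used 1 mean per line, 2 lines a side. In bulk RNA, fewer expressing cells and less RNA per cell cannot be told apart. The median signal per array was 123 to 186 intensity units over a background of 35 to 39.5, and 90.9 to 98.7% of mouse probes stood above background. Pearson correlations across features were 0.946 to 0.970 between both arrays of 1 line, 0.741 to 0.834 within a group and 0.166 to 0.487 between Taf5-kd and Ctrl-kd. No array stood apart from its line.

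T differed more between the Taf5-kd clones than any other feature on the array, standing 7.65-fold higher in Taf5-kd#1 than in Taf5-kd#2, and 6 further streak genes were also higher in Taf5-kd#1. These were Wnt3 (2.71-fold), Eomes (1.76-fold), Fgf8 (1.57-fold), Mixl1 (1.43-fold), Gsc (1.36-fold) and Evx1 (1.35-fold). In Taf5-kd#2, T and Wnt3 lay between the Ctrl-kd lines and the parental cells, and the means of the other 8 genes lay between -0.19 and 0.18 log2 units of the parental level. Both Ctrl-kd lines had T and Wnt3 far under the parental level.

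Because T and Wnt3 carry the largest differences, their promoters are shown, with that of Mesp1, a member without a called difference between the clones, for comparison. The sequences are the 250 bases upstream of the annotated start, from the RefSeq promoter table of GRCm38.p6, which held 8 of the 10 genes. Capitals mark 5 short motifs found on either strand. The TATA box was searched as TATAAA, the core of the TCF/LEF site as CTTTGA and the core of the T-box site as TCACAC. The CCAAT box was searched by its own letters and the GC box as GGGCGG.
T, chr17:8434173-8434422, plus strand: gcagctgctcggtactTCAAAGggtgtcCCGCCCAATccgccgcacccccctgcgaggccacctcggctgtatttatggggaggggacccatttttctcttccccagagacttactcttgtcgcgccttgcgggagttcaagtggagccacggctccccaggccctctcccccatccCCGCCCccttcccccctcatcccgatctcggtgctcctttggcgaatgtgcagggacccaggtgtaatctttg
Wnt3, chr11:103773925-103774174, plus strand: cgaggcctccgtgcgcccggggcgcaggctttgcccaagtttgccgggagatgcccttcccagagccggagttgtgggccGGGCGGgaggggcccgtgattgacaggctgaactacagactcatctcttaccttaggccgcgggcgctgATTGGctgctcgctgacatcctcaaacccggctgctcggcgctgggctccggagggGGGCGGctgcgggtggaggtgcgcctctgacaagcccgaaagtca
Mesp1, chr7:79793591-79793840, minus strand: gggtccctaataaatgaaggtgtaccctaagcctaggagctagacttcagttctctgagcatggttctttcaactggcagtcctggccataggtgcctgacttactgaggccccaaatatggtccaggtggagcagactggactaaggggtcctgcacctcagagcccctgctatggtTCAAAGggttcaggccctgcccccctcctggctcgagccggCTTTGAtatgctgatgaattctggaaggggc
Read 5′ to 3′, the T window held 1 TCF/LEF core on its minus strand from -234 to -229, a CCAAT box that overlaps a GC box, and a GC box from -73 to -68. The Wnt3 window held a CCAAT box and 2 GC boxes and no TCF/LEF core. The Mesp1 window held 2 TCF/LEF cores. Among all 32851 promoters in the table, windows of the same length held a TCF/LEF core in 13.8%, TATAAA in 12.4%, TCACAC in 12.3%, CCAAT in 33.9% and GGGCGG in 32.7%. Of the other 5 members with an entry, Gsc and Tbx6 held TATAAA, Evx1 held TCACAC, Eomes and Lhx1 held CCAAT, and Gsc held GGGCGG. In all, 4 of the 8 member windows held CCAAT and 3 held GGGCGG. A match of letters describes the window and does not show that a factor binds there.

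The knockdown itself was alike in both clones. The log2 ratio of Taf5 on chromosome 19 (probe MMAB025743) was 0.44 and 0.51 on the arrays of Ctrl-kd#1, 0.14 on each array of Ctrl-kd#2, -1.09 and -1.07 on those of Taf5-kd#1, and -1.06 and -1.16 on those of Taf5-kd#2. All 4 Taf5-kd arrays lay under all 4 Ctrl-kd arrays, and the ranges of the Taf5-kd clones overlapped. Taf5 was 2.65-fold lower in Taf5-kd than in Ctrl-kd lines, at -1.40 ± 0.13 (log2, SE, 2 lines a side, adjusted p = 0.0267). Between the clones it differed by 0.03 ± 0.05 (adjusted p = 0.787, 95% confidence interval -0.09 to 0.15).

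T on chromosome 17 (probe MMAB008456) encodes the T-box factor Brachyury, which is required for posterior mesoderm and the notochord. Its log2 ratio to the parental pool was -2.22 and -1.81 in Ctrl-kd#1, -2.23 and -2.39 in Ctrl-kd#2, 2.47 and 2.50 in Taf5-kd#1, and -0.31 and -0.59 in Taf5-kd#2. Each Taf5-kd clone lay above all 4 Ctrl-kd arrays, with Taf5-kd#1 above the parental level and Taf5-kd#2 under it, while the Ctrl-kd lines lay close together. The same order showed in the signal itself. After background subtraction the line channel read 59.9, 106, 66.6 and 102 intensity units on the Ctrl-kd arrays, 4099 and 5873 on the Taf5-kd#1 arrays and 346 and 661 on the Taf5-kd#2 arrays. The parental channel read 436 to 829 on the same 8 arrays.

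**Figure D1:**
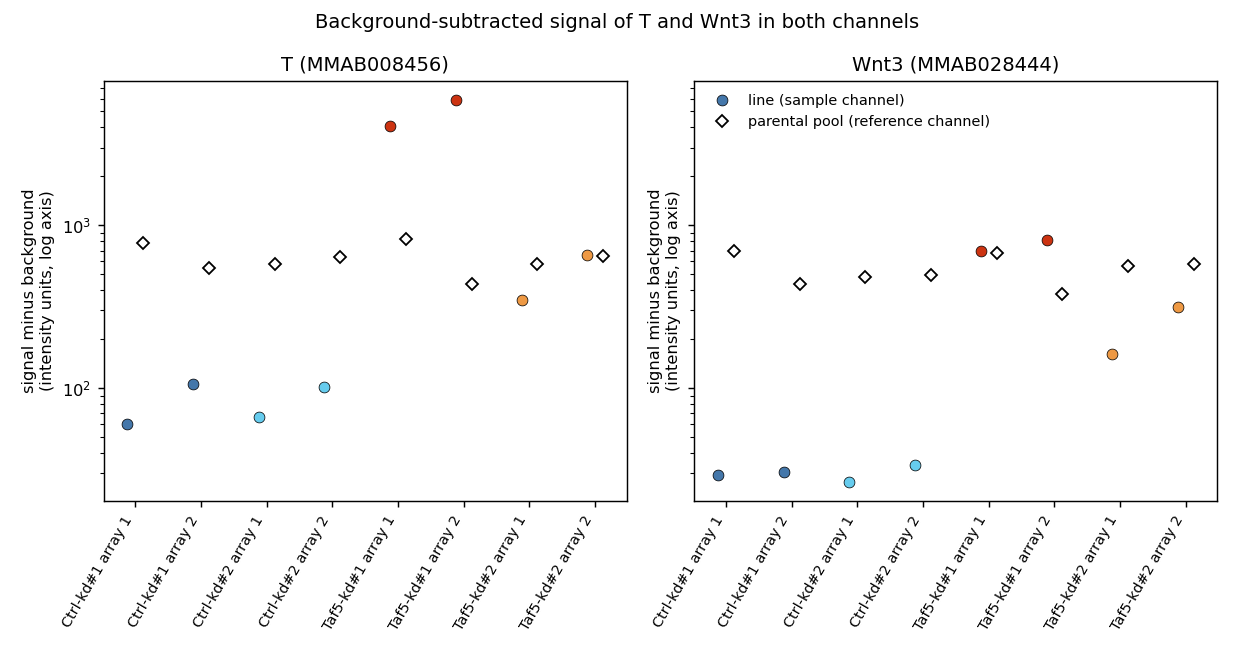
Background-subtracted signal of T (left) and Wnt3 (right) on each of the 8 arrays, in intensity units on a log axis, with filled points for the line and open diamonds for the parental pool. The parental signal of T stayed between 436 and 829 while the line signal ran from 59.9 to 5873, highest on both Taf5-kd#1 arrays. Array 2 of each line had the line in Cy5 and array 1 in Cy3, and these signals carry no dye correction.

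Between the clones T differed by 2.93 ± 0.13 (log2, SE, adjusted p = 8.69e-06). This was the largest absolute difference of the 25150 features. Against the mean of the Ctrl-kd lines, T was higher by 4.64 ± 0.12 (25.0-fold, adjusted p = 3.59e-08) in Taf5-kd#1 and by 1.71 ± 0.12 (3.27-fold, adjusted p = 8.46e-06) in Taf5-kd#2, 2 comparisons that share their controls. Against the parental pool, T was 5.60-fold higher in Taf5-kd#1 (adjusted p = 3.14e-07) and 1.37-fold lower in Taf5-kd#2 (adjusted p = 0.00478). It was 4.03-fold lower in Ctrl-kd#1 and 4.95-fold lower in Ctrl-kd#2. From high to low the levels were thus Taf5-kd#1, the parental pool, Taf5-kd#2 and the Ctrl-kd lines, and the Ctrl-kd lines did not differ from each other past the threshold (0.29 ± 0.13, adjusted p = 0.224).

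Eomes, the T-box factor of the anterior streak and definitive endoderm (chromosome 9, probe MMAB010559), stood at -0.16, 0.00, 0.05 and 0.01 on the Ctrl-kd arrays, at 0.67 and 0.71 in Taf5-kd#1 and at -0.05 and -0.20 in Taf5-kd#2. Both Taf5-kd#1 arrays lay above the other 6, which overlapped around the parental level. The clones differed by 0.82 ± 0.07 (log2, SE, adjusted p = 1.87e-04). Taf5-kd#1 was higher than the Ctrl-kd lines by 0.72 ± 0.06 (adjusted p = 1.84e-05), and the difference of Taf5-kd#2 from them was -0.10 ± 0.06 (adjusted p = 0.241).

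Tbx6, a T-box factor of paraxial mesoderm (chromosome 7, probe MMAB000257), was above background in the line channel on 5 of 8 arrays, so its ratios rest on signals near background. They ran from -0.18 to 0.02, with 0.01 and -0.04 in Taf5-kd#1 and -0.18 and -0.17 in Taf5-kd#2. The Ctrl-kd values of -0.14 to 0.02 overlapped with those of Taf5-kd#1. The difference between the clones was 0.16 ± 0.05 (adjusted p = 0.0756, 95% confidence interval 0.05 to 0.28). It passed with no background subtraction (0.20, adjusted p = 0.0242) and on the authors' processed ratios (0.20, adjusted p = 0.0324).

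Among the homeobox genes, Mixl1, a regulator of mesendoderm formation (chromosome 1, probe MMAB033671), stood at -0.12, -0.08, -0.20 and -0.09 on the Ctrl-kd arrays, at 0.47 and 0.37 in Taf5-kd#1 and at -0.07 and -0.12 in Taf5-kd#2. The line signal was 17.0 to 37.2 intensity units on 6 arrays and 88.5 and 94.4 on those of Taf5-kd#1. Again Taf5-kd#1 alone lay apart, and Taf5-kd#2 overlapped with the Ctrl-kd lines. The clones differed by 0.52 ± 0.06 (log2, SE, adjusted p = 6.89e-04).

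Gsc, a homeobox gene of the organizer and anterior streak (chromosome 12, probe MMAB012295), stood at 0.16 and 0.09 in Ctrl-kd#1, -0.10 and -0.05 in Ctrl-kd#2, 0.66 and 0.59 in Taf5-kd#1 and 0.14 and 0.22 in Taf5-kd#2. Taf5-kd#1 was highest, and Taf5-kd#2 overlapped with Ctrl-kd#1. The clones differed by 0.44 ± 0.05 (log2, SE, adjusted p = 0.00120). Gsc was called higher in Taf5-kd#2 than in the Ctrl-kd lines (0.15 ± 0.05, adjusted p = 0.0325), yet the Ctrl-kd lines differed from each other by as much (0.20 ± 0.05, adjusted p = 0.0474). Its signal was above background in the line channel on 7 of 8 arrays, with array 1 of Taf5-kd#2 under the limit.

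Evx1, a homeobox gene of the posterior streak (chromosome 6, probe MMAB012769), stood at -0.01, -0.07, 0.02 and 0.02 on the Ctrl-kd arrays, at 0.29 and 0.37 in Taf5-kd#1 and at -0.09 and -0.11 in Taf5-kd#2. The Taf5-kd#1 arrays lay above the other 6 and those of Taf5-kd#2 below them. The clones differed by 0.43 ± 0.05 (log2, SE, adjusted p = 8.24e-04). On array 1 of Taf5-kd#1 the parental channel of this spot also read high, at 211 intensity units against 54.2 to 115 on the other arrays, and its part in the ratio was not tested. The second array of that line read 58.1 in the parental channel and gave the higher ratio.

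For Lhx1, a LIM homeobox gene of the anterior streak and organizer (chromosome 11), the probes disagreed. The brighter probe, MMAB016039, ran from -0.22 to 0.04 over the 8 arrays with overlapping lines, and the clones differed by -0.12 ± 0.07 (adjusted p = 0.387, 95% confidence interval -0.29 to 0.05). The dimmer probe, MMAB037330, stood at 0.45 and 0.48 in Taf5-kd#1, 0.05 and 0.05 in Taf5-kd#2 and -0.06 to -0.01 in the Ctrl-kd lines. By that probe the clones differed by 0.41 ± 0.04 (adjusted p = 6.12e-04). Its line signal was 146 and 96.3 intensity units in Taf5-kd#1 and 19.7 to 48.5 elsewhere, against 253 to 561 for the brighter probe. On array 1 of Taf5-kd#1 the parental channel of the dimmer probe also read high, at 105 against 25.0 to 46.4 on the other arrays. The part of that reading in the ratio was not tested. Array 2 of that line read 25.2 in the parental channel and gave the ratio of 0.48. Lhx1 was counted by its brighter probe, as without a call.

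Mesp1, a helix-loop-helix factor of cardiac mesoderm precursors (chromosome 7), showed no called difference between the clones by either probe. Its brighter probe, MMAB036580, stood at 0.04 and 0.03 in Taf5-kd#1, 0.08 and 0.12 in Taf5-kd#2 and -0.08 to 0.12 in the Ctrl-kd lines, so by this probe neither clone stood apart from the Ctrl-kd lines. The difference between the clones was -0.06 ± 0.05 (adjusted p = 0.500, 95% confidence interval -0.18 to 0.05). By probe MMAB010978 it was -0.00 ± 0.04 (adjusted p = 0.990). That dimmer probe stood at 0.15 to 0.17 on the Taf5-kd arrays and 0.04 to 0.07 on the Ctrl-kd arrays, which did not overlap. Against the Ctrl-kd lines it differed by 0.11 in each clone (adjusted p = 0.0508 in Taf5-kd#1 and 0.0515 in Taf5-kd#2).

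Of the ligands, Wnt3, the Wnt needed to start the streak in the mouse embryo (chromosome 11, probe MMAB028444), followed the order of T. It stood at -2.55 and -1.90 in Ctrl-kd#1, -2.55 and -2.72 in Ctrl-kd#2, 0.31 and 0.05 in Taf5-kd#1 and -1.15 and -1.36 in Taf5-kd#2. The Taf5-kd clones overlapped neither with each other nor with the Ctrl-kd lines, which lay close together. After background subtraction its line signal was 26.6 to 33.6 intensity units in the Ctrl-kd lines, a smaller value than the median array background itself. The probe was still above background in the line channel on all 8 arrays. The line signal was 694 and 818 in Taf5-kd#1 and 161 and 316 in Taf5-kd#2. The parental channel read 380 to 691. The folds of Wnt3 against the Ctrl-kd lines rest on those dim signals, and in the authors' deposited table its log2 differences are 3.17 and 3.18 for Taf5-kd#1 and 1.73 and 1.74 for Taf5-kd#2 against the single Ctrl-kd lines.

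The clones differed in Wnt3 by 1.44 ± 0.19 (log2, SE, adjusted p = 0.00172). Against the Ctrl-kd lines Wnt3 was 6.12-fold higher in Taf5-kd#1 (2.61 ± 0.16, adjusted p = 3.29e-06) and 2.26-fold higher in Taf5-kd#2 (1.18 ± 0.16, adjusted p = 5.39e-04). Unlike T, Wnt3 in Taf5-kd#1 did not differ past the threshold from the parental pool (0.18 ± 0.13, adjusted p = 0.333). It was 2.39-fold lower than parental in Taf5-kd#2, 4.68-fold in Ctrl-kd#1 and 6.23-fold in Ctrl-kd#2. The second, dimmer probe, MMAB025267, gave 0.70 ± 0.16 between the clones (adjusted p = 0.0229), with Taf5-kd#2 at -0.39 and -0.66 and Ctrl-kd arrays at -0.90 to -0.45, which overlapped. By that probe Taf5-kd#2 was not called against the Ctrl-kd lines (0.22, adjusted p = 0.273). Across the 899 bright genes of chromosome 11, which also holds Lhx1, the median log2 ratio was -0.14 in Ctrl-kd#1, -0.13 in Ctrl-kd#2, 0.08 in Taf5-kd#1 and 0.09 in Taf5-kd#2. The median of these genes differed by 0.27 between Taf5-kd and Ctrl-kd but by 7.69e-04 between the Taf5-kd clones.

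Fgf8, the fibroblast growth factor through which cells leave the streak (chromosome 19, probe MMAB000080), stood at -0.13 to -0.09 on the Ctrl-kd arrays, 0.42 and 0.50 in Taf5-kd#1 and -0.16 and -0.22 in Taf5-kd#2. Taf5-kd#1 lay above all other arrays and Taf5-kd#2 just below them. The clones differed by 0.65 ± 0.05 (log2, SE, adjusted p = 1.24e-04). The second probe, MMAB026450, gave a smaller difference of 0.27 (adjusted p = 0.00981), with 0.15 on both Taf5-kd#1 arrays.

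**Figure D2:**
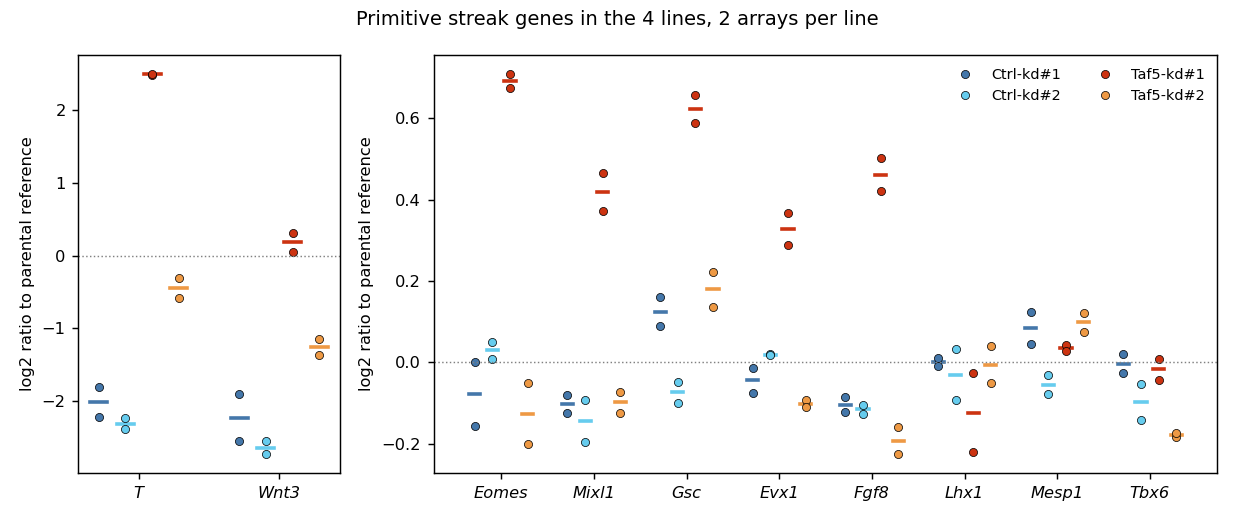
Dye-corrected log2 ratio to the parental pool (0, dotted line) of the 10 streak genes, brightest probe each, with 1 point per array and a bar for the mean of a line. T and Wnt3 are on a wider axis at the left, where T in Taf5-kd#1 stands at 2.47 and 2.50. For Eomes, Mixl1, Gsc, Evx1 and Fgf8 the Taf5-kd#1 arrays lie above the other 6, and for Lhx1, Mesp1 and Tbx6 they do not.

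In all, 7 of the 10 genes were called higher and 0 lower in Taf5-kd#1 than in Taf5-kd#2, where 9.49% of all features were called higher and 4.06% lower. The median difference of the 10 genes was 0.48 log2 units against 0.0044 over all features. The 3 without a call were Lhx1, Mesp1 and Tbx6. With median centring in place of loess, T and Wnt3 kept their calls and the other 5 genes lost theirs at like sizes, with adjusted p of 0.0534 for Eomes, 0.130 for Fgf8, 0.480 for Evx1, 0.497 for Mixl1 and 0.847 for Gsc. With an offset of 10 in place of 50 the difference of Mixl1 was 0.82, over 1.5 times as large. Against the Ctrl-kd lines, the count in Taf5-kd#1 was 7 higher and 0 lower, with 21.7% of all features called higher and 18.3% lower. In Taf5-kd#2 it was 3 higher (T, Wnt3 and Gsc) and 0 lower, with 18.2% of all features higher and 17.8% lower. These comparisons share the Ctrl-kd lines. The authors' deposited table, whose test is not given, sets Taf5-kd#1 against Ctrl-kd#1 and Ctrl-kd#2 in turn. There T, Wnt3, Mixl1 and Gsc had p-values under 0.05 in both pairs. Evx1 and Fgf8 had p-values over 0.05 in both, at 0.134 and 0.0768 for Fgf8. Eomes had 0.152 against Ctrl-kd#1 and 0.0108 against Ctrl-kd#2.

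**Figure D3:**
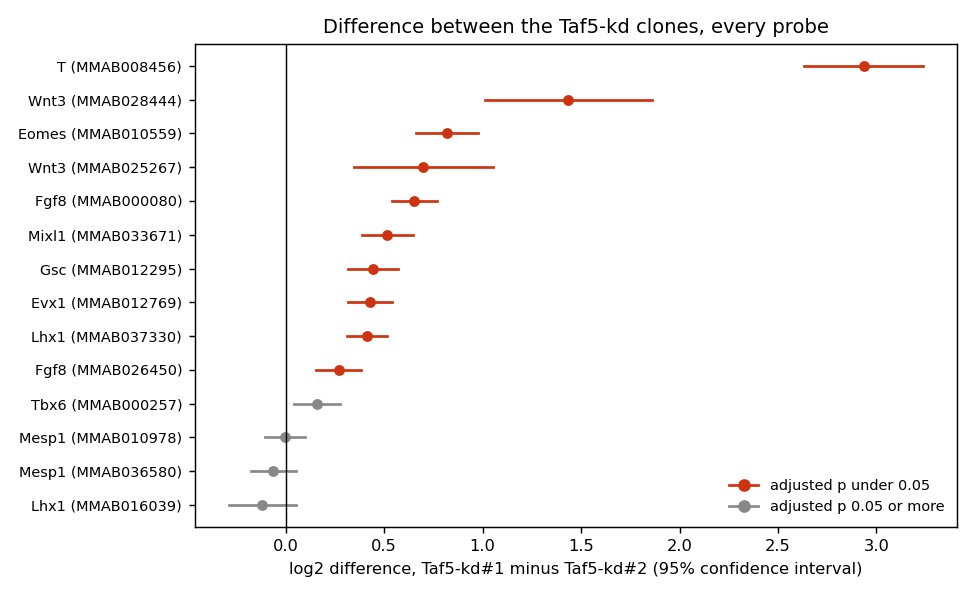
Log2 difference between Taf5-kd#1 and Taf5-kd#2 for each of the 14 probes, with its 95% confidence interval from limma's fit on single probes. Red points passed an adjusted p of 0.05. T stands at 2.93, and the probes of Lhx1 lie on opposite sides of 0, at 0.41 and -0.12.

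**Figure D4:**
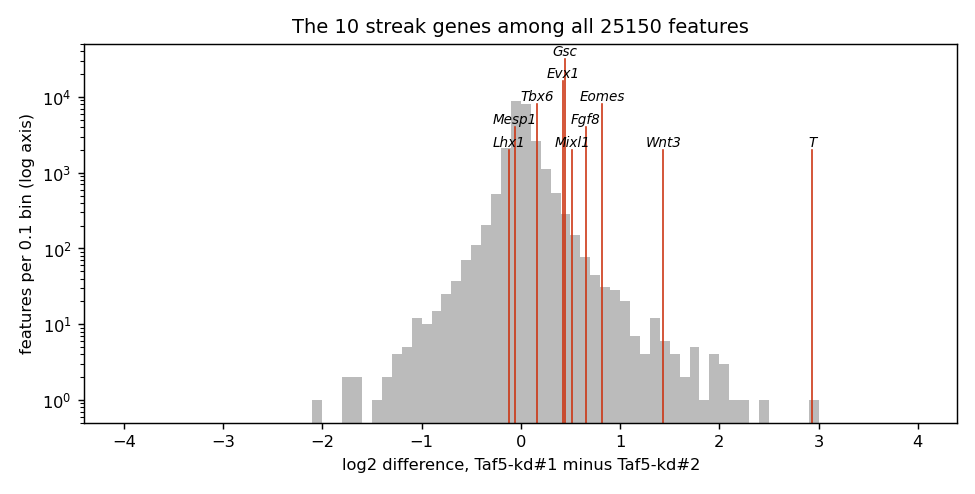
Number of features per bin of the log2 difference between Taf5-kd#1 and Taf5-kd#2, on a log axis, with red lines at the 10 streak genes. T at 2.93 is the farthest feature from 0, Wnt3 ranks 31 by absolute difference, and Lhx1, Mesp1 and Tbx6 lie in the bulk around 0.

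Each line was also set against the parental pool. In Taf5-kd#1, 6 of the 10 genes were higher and 0 lower, where 20.5% of all features were higher and 22.4% lower. In Taf5-kd#2, 2 were higher (Gsc and Mesp1) and 5 lower (T, Wnt3, Fgf8, Tbx6 and Evx1), where 18.8% of all features were higher and 23.4% lower. In Ctrl-kd#1, 1 was higher (Gsc) and 3 lower, where 18.8% of features were higher and 24.1% lower. In Ctrl-kd#2, 0 were higher and 4 lower, where 19.6% were higher and 22.9% lower. T, Wnt3 and Fgf8 were among the lower genes in both Ctrl-kd lines, Fgf8 only at -0.10 in Ctrl-kd#1 and -0.12 in Ctrl-kd#2. The second probe of Fgf8 was not called in Ctrl-kd#1 (adjusted p = 0.389) or Ctrl-kd#2 (adjusted p = 0.593) in limma's fit on single probes. With each probe as its own feature, Mesp1 in Taf5-kd#2 missed the threshold by its brighter probe (adjusted p = 0.0519). Between the Ctrl-kd lines 1 gene, Gsc, was called (adjusted p = 0.0528 with each probe as its own feature), with 6.66% of features called higher and 6.76% lower in Ctrl-kd#1 than in Ctrl-kd#2.

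As groups, the Taf5-kd lines showed 0 streak genes past the threshold against the Ctrl-kd lines in limma's test on line means, where 4.5% of all features were called higher and 3.25% lower. The smallest unadjusted p-values among the 10 in that test were 0.0260 for Wnt3 and 0.0421 for T. The share of all features with an unadjusted p that low is not given here. T differed by 3.18 ± 1.06 (log2, SE, 2 lines a side, adjusted p = 0.170), with line means of 2.49 and -0.45 in Taf5-kd and -2.01 and -2.31 in Ctrl-kd. Wnt3 differed by 1.89 ± 0.54 (adjusted p = 0.129). For both genes each Taf5-kd line lay above each Ctrl-kd line. For Eomes, Evx1 and Fgf8 Taf5-kd#1 had the highest line mean and Taf5-kd#2 the lowest. With arrays as the unit and the line as a random block, T (adjusted p = 0.0192) and Wnt3 (adjusted p = 0.0164) passed. That fit takes 1 correlation between arrays of a line, 0.441, for all features. For T the arrays stood at 2.47 and 2.50 in Taf5-kd#1 and at -0.31 and -0.59 in Taf5-kd#2. The fit may thus count the arrays of a line as more independent than they are for this gene. That fit also called more features in all than the test on line means, by the counts in the last section. Without Taf5-kd#1 the difference in T was 1.71 (adjusted p = 0.101), and without Taf5-kd#2 it was 4.64 (adjusted p = 0.0493). In these fits the Taf5-kd side is a single line, so the spread comes from the Ctrl-kd lines and the lone line is assumed to vary like them. In the authors' deposited table T has a log2 difference of 3.46 between the groups with a p-value of 0.0144, and 4.87, 5.00, 1.93 and 2.06 for the pairs of single lines, the first pair of values being those of Taf5-kd#1.

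Of other genes of the streak and nascent mesoderm, from a list of 28 of which 27 were measured, 7 were higher and 1 lower in Taf5-kd#1 than in Taf5-kd#2, with a median of 0.08. For this and the following lists, the shares over all features were 9.49% higher and 4.06% lower between the clones, and 4.5% higher and 3.25% lower between Taf5-kd and Ctrl-kd on line means. Cyp26a1, which degrades retinoic acid and is expressed in the early streak, was 2.63-fold higher in Taf5-kd#1 (1.39 ± 0.14, adjusted p = 4.70e-04). Cdx2, a caudal factor of posterior mesoderm that also marks trophoblast, was 1.82-fold higher (0.86 ± 0.13, adjusted p = 0.00351) and stood above the Ctrl-kd lines in both clones, with line means of 2.25 and 1.38 against -0.78 and -0.81. The Notch ligand gene Dll3 differed by 0.39 ± 0.06 (adjusted p = 0.00290) and Wnt8a by 0.24 ± 0.10 (adjusted p = 0.179). Against Ctrl-kd on line means, 3 of the 27 were higher (Cdx2, Dll3 and Wnt8a) and 0 lower.

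In a list of 30 Wnt ligands, receptors and targets, 15 were higher and 1 lower in Taf5-kd#1 than in Taf5-kd#2, with a median of 0.18 against 0.0044 over all features. Sp5, a zinc finger gene and direct Wnt target, differed by 2.01 ± 0.08 (4.03-fold, adjusted p = 6.02e-06), rank 6 of all features. Its line means were 2.14 in Taf5-kd#1, 0.13 in Taf5-kd#2, -1.07 in Ctrl-kd#1 and -1.67 in Ctrl-kd#2, the same order of lines as for T. The ligand gene Wnt5a was 2.48-fold higher in Taf5-kd#1 (1.31 ± 0.08) and Wls, the carrier that brings Wnt proteins to the cell surface, 1.58-fold (0.66 ± 0.10). The receptor gene Fzd2 was not called between the clones (0.09 ± 0.08, adjusted p = 0.563) but was 3.04-fold higher in Taf5-kd than in Ctrl-kd lines (adjusted p = 0.0241). In that comparison 3 of the 30 were higher and 1 lower.

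Among 26 genes of Nodal and BMP signalling, 6 were higher and 3 lower in Taf5-kd#1 than in Taf5-kd#2, with a median of 0.04. Lefty1, a Nodal target and antagonist, was 1.85-fold lower in Taf5-kd#1 (-0.89 ± 0.07, adjusted p = 1.23e-04). Its line means were -1.96 in Taf5-kd#1, -1.07 in Taf5-kd#2, -1.59 in Ctrl-kd#1 and -2.87 in Ctrl-kd#2. The Ctrl-kd lines thus lay farther apart than the clones, on both sides of Taf5-kd#1. Pcsk6, a convertase that matures Nodal, was 1.23-fold higher in Taf5-kd#1 than in Taf5-kd#2 (0.30 ± 0.06, adjusted p = 0.0131). Against Ctrl-kd lines 5 were higher and 3 lower. Id2, a BMP target, was 4.69-fold higher (adjusted p = 0.0241), Bmp4 2.40-fold lower (adjusted p = 0.0244) and Pcsk6 2.83-fold lower (adjusted p = 0.0243). For Pcsk6 the means of both Taf5-kd clones thus lay under those of both Ctrl-kd lines. Among 18 genes of FGF signalling, 2 were higher and 3 lower between the clones, with a median of -0.01. Fgf5, a ligand of the primed epiblast, was 3.72-fold higher in Taf5-kd#1 (1.90 ± 0.21, adjusted p = 7.32e-04), and the phosphatase gene Dusp4 2.07-fold (1.05 ± 0.07). The feedback inhibitor gene Spry4 was 1.71-fold lower (-0.77 ± 0.12, adjusted p = 0.00434). The line means of Dusp4 were 0.88 in Taf5-kd#1, -0.17 in Taf5-kd#2, -2.49 in Ctrl-kd#1 and -1.24 in Ctrl-kd#2. For Dusp4, too, the Ctrl-kd lines lay farther apart than the clones, and under both. Against Ctrl-kd lines 0 were higher and 1, Fgf4, was lower.

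Some lists of cell-state markers also differed between the clones, in either direction. The definitive endoderm and neural lists had median differences of -0.04 and 0.02. The part of cell states in these results was not tested. Of 12 ES cell markers, 7 were lower and 1 higher in Taf5-kd#1 than in Taf5-kd#2 (median -0.36), among them Zfp42 (1.98-fold, -0.99 ± 0.09) and Dppa5a (1.68-fold, -0.75 ± 0.13). The mean log2 ratio of the list was 0.49 to 0.53 on the Ctrl-kd arrays, -0.37 to -0.32 in Taf5-kd#1 and -0.01 to 0.05 in Taf5-kd#2, and all 12, with Pou5f1, Sox2 and Nanog among them, were above background on every array. Of 10 primed epiblast markers, 6 were higher and 1 lower (median 0.28), with Otx2 2.18-fold higher in Taf5-kd#1 (1.13 ± 0.05, adjusted p = 7.72e-06). The line means of Otx2 were 1.04 in Taf5-kd#1, -0.09 in Taf5-kd#2, -1.73 in Ctrl-kd#1 and -0.51 in Ctrl-kd#2. Its Ctrl-kd lines thus lay farther apart than the clones, and under both. The mean ratio of the 10 primed epiblast markers was 0.11 to 0.13 in Taf5-kd#1, -0.37 to -0.30 in Taf5-kd#2 and -0.94 to -0.64 in the Ctrl-kd lines. Cdx2, Fgf5, Foxa2, Gata6 and other genes stand in more than 1 of the lists.

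Of 10 measured trophoblast markers, 4 were higher and 0 lower in Taf5-kd#1, with Krt8 2.97-fold (1.57 ± 0.10) and Krt18 2.93-fold (1.55 ± 0.12) higher. These keratin genes are also expressed in other epithelia, and both lay under the parental level in all 4 lines. The list's mean ratio was -0.03 to 0.04 in Taf5-kd#1, -0.49 to -0.40 in Taf5-kd#2 and -1.09 to -0.96 in the Ctrl-kd lines. Its median difference between the clones was 0.13, far under the differences of Krt8 and Krt18, which weigh on the mean. Of 14 primitive endoderm markers, 1 was higher and 6 lower in Taf5-kd#1, Cubn by -0.78 ± 0.11 and Gata6 by -0.45 ± 0.12, and the list's mean ratio was highest in Ctrl-kd#2, at 0.82 to 0.91, against -0.34 to 0.02 in the other lines. Of 8 definitive endoderm markers, 0 were higher and 1 (Gata6) lower. Of 8 neural markers, 1 was higher (Map2) and 2 lower, with mean ratios of -0.19 to 0.02 over the 8 arrays. Of 9 fibroblast and feeder markers, 1 was higher and 3 lower in Taf5-kd#1, Col1a1 being 2.55-fold lower there (-1.35 ± 0.13). The mean ratio of that list was -0.65 to -0.57 in the Ctrl-kd lines, -0.31 to -0.28 in Taf5-kd#1 and -0.09 on both arrays of Taf5-kd#2, with 2 of 9 (Vim and Acta2) higher and 0 lower in Taf5-kd than in Ctrl-kd on line means. No marker on these lists was below background on every array. Elf5 was dropped by the filter, and Noto and Prl3d1 were not analysed here.

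Over the 8 arrays, which share 1 reference pool and fall into 4 lines, Pearson's r with T was 0.987 for Wnt3, 0.949 for Gsc, 0.932 for Mixl1, 0.867 for Fgf8, 0.859 for Eomes and 0.795 for Evx1. It was 0.164 for Mesp1, 0.160 for Tbx6 and -0.564 for the brighter probe of Lhx1. Among 921 features with a gene name, signal on every array and line means spanning at least 1 log2 unit, 305 had an r over 0.9, so that a high r is common in these 8 arrays. The 8 genes most like T were Colec12 (r = 0.999), Rbm43, Parp9, Dsp, Ghr, Cldn7, Cldn6 and Igfbp3 (r = 0.996). Dsp encodes desmoplakin of desmosomes, Cldn6 and Cldn7 encode claudins of tight junctions, and Ghr is the growth hormone receptor gene. Igfbp3, an IGF-binding protein gene, had line means of -3.02 and -3.03 in Ctrl-kd, 0.84 in Taf5-kd#1 and -1.40 in Taf5-kd#2. Only Igfbp3, Parp9, Rbm43 and Ghr of the 8 lay above the parental level in Taf5-kd#1, whereas Colec12, Dsp, Cldn6 and Cldn7 stayed under it in all 4 lines.

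**Figure D5:**
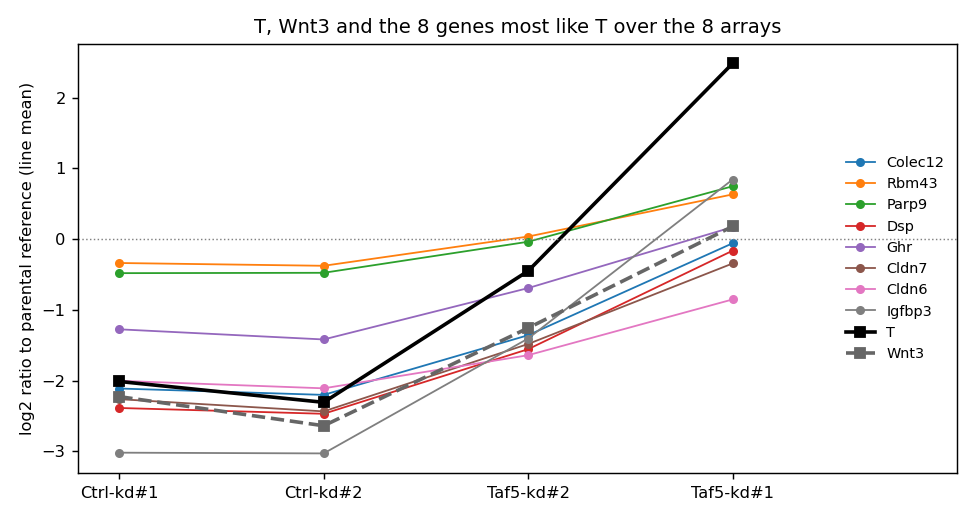
Mean log2 ratio to the parental pool (0, dotted line) of each line for T, Wnt3 and the 8 genes most like T over the 8 arrays. All 10 genes have their highest mean in Taf5-kd#1 and their second highest in Taf5-kd#2, and T rises farthest above 0, to 2.49.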

How the data were processed

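RNA of 4 clonal lines was hybridised on 8 dual-colour arrays. The scanner tables hold, per the file headers, the mean intensity and local background of each of 45220 spots in both channels, as deposited. The authors' processed table holds log2 ratios of sample over reference, and the authors' deposited comparison table holds log2 differences with a p-value whose test the sources used here do not give. Their normalization is not given either, so the scanner intensity was used and the processed ratios served as an alternative.

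Background was corrected with normexp (offset 50), ratios were normalized by global loess with control spots at weight 0, and each array was turned by the dyes in the labels (limma 3.58.1, statmod 1.5.0, R 4.3.3; figures with matplotlib 3.10.9 in Python 3.11.15). Ratios correlated at 0.873 to 0.974 with the authors' over bright probes. A probe was kept if either channel exceeded background by 2 background SDs on 4 or more of the 8 arrays, which held for 40860 of 41174 mouse probes, and the brightest probe stood for a gene, giving 25150 features, 18258 with a symbol. Signals are given after subtraction of the local background.

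The clones were compared in a fit with 1 mean per line and the array number, which is also the dye, as a replicate block. Deviations from the line means correlated at 0.700 to 0.829 between same-numbered arrays, so the number pairs the arrays, though dye and number cannot be told apart. Taf5-kd and Ctrl-kd were compared on line means. The scripts were tested on simulated data. Alternatives were median centring, other background settings, the authors' ratios, other probe filters, single probes (chosen after seeing the data), other blocks, and leaving out arrays or lines. Genes given with values are Taf5, the 10 members, up to 4 genes per list past the threshold with the largest change, and the 8 most correlated with T. The members and lists were chosen with earlier results of these data known, so no count over them is independent support.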

Additional observations from a re-analysis of the deposited data

Results flagged for a closer look

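For 7 genes the departure from the Ctrl-kd lines differed between the Taf5-kd clones by the test of that difference itself, with both arrays of Taf5-kd#1 above both arrays of Taf5-kd#2. The log2 differences were 2.93 for T, 1.44 for Wnt3, 0.82 for Eomes, 0.65 for Fgf8, 0.52 for Mixl1, 0.44 for Gsc and 0.43 for Evx1, all with an adjusted p under 0.05 in limma's test across all features. Taf5 itself differed by 0.03 between the clones (adjusted p = 0.787). Each clone is 1 colony, so the clone and anything that came with its culture cannot be told apart.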

How the results depend on the processing

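Between the Taf5-kd clones, T and Wnt3 passed under each of the 17 alternatives run, T at 2.75 to 3.12 and Wnt3 at 1.07 to 1.61 log2 units. With median centring in place of loess the count of features fell from 3408 to 94 and that of streak genes from 7 to 2, and Eomes (0.83, adjusted p = 0.0534), Fgf8 (0.68, 0.130), Mixl1 (0.48, 0.497), Evx1 (0.45, 0.480) and Gsc (0.44, 0.847) missed the threshold at like sizes; the cause was not tested. An offset of 10 gave 2167 features and moved Mixl1 from 0.52 to 0.82 and Eomes from 0.82 to 1.05. It also moved Gsc from 0.44 to 0.61, Evx1 from 0.43 to 0.56 and Fgf8 from 0.65 to 0.79. Wnt3 moved from 1.44 to 1.58 and T from 2.93 to 3.03. No called difference changed sign. Among differences without a call, Lhx1 between the clones turned from -0.12 to 0.15 with the mean of its probes and to 0.01 without array 2 of Taf5-kd#1.

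The array number is also the dye in every line, and without the replicate block the clone comparison called 923 features, all among the 3408, with 7 streak genes. Leaving out 1 array in turn gave 1291 to 3997 features and 7 streak genes each time. The counts were 1291 and 1683 without array 1 and array 2 of Taf5-kd#1, and 2145 and 1373 without those of Taf5-kd#2.

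For Taf5-kd against Ctrl-kd (1950 features, 0 streak genes) median centring called 106. Arrays with the line as a random block called 5673 with the replicate block and 5594 without it, with 2 streak genes, T and Wnt3, in both. Leaving out 1 array gave 1407 to 2520 features and 0 streak genes. Without line Ctrl-kd#1, Ctrl-kd#2 or Taf5-kd#1 limma called 0 features (5657, 5314 and 4974 at an unadjusted p under 0.05), and without Taf5-kd#2 it called 110 and 1 streak gene, T. Each such fit leaves 1 group with a single line, assumed to vary like the other group. Without Taf5-kd#1 the differences of Eomes (-0.10), Evx1 (-0.09) and Fgf8 (-0.08), none called, lay under 0. With 1 line left out, Taf5 stood at -1.57 to -1.24 with adjusted p of 0.0715 to 0.109. Signals near background limit Tbx6, Gsc, Mixl1, Wnt3 in the Ctrl-kd lines and the dimmer probes of Lhx1, Mesp1 and Wnt3.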
